A study of Arabidopsis with 12 samples.

Results

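The genes described here are the rows of the deposited expression table that carry the KEGG pathway "protein processing in endoplasmic reticulum" of Arabidopsis, less those annotated as chaperones, heat shock or DNAJ proteins, calnexins, calreticulins, luminal binding proteins or bZIP factors, and less 3 named loci. These were 283 of the 374 rows of the pathway and of 37825 rows in all. Of the 283, 251 reached 1 TPM (a length-corrected share of the transcripts of a library) in at least 3 libraries and were tested. The other 32 were not tested, 7 of them at 0 in all libraries; 13 of the 32 were SCF and cytosolic ubiquitin genes and 14 were in the role called other below. A member that reached 1 TPM in 1 group alone had to differ, and there were 3 of these (AT1G24320 in WT controls, SK3 and SK8 in mac3a3b at 3 days). Members such as SK7, which reached 1 TPM in a second group but would fail the filter without the group where they are high, are not among these.

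RNA of Arabidopsis seedlings, grown on plates with sucrose, was sequenced from mac3a3b 3 days, WT 3 days, mac3a3b control and WT control samples, with 3 libraries in each group. The mutant carries lesions in MAC3A and MAC3B, which encode a pair of related ubiquitin ligases of a spliceosome-associated complex; the labels name it only DM, and the series text gives the genotype. The 3 day groups were sampled after heat at 37 °C ended, while the control groups have the label control and the series text gives 0 hours after heat stress for the earlier time. Ages, the length of the heat and the alleles were not found in the labels, and no unheated seedlings of 3 days more were analysed, so heat and the days that passed cannot be told apart. MAC3A averaged 6.12 ± 0.623 TPM in mac3a3b at 3 days, 60.4 ± 1.03 in WT at 3 days, 9.74 ± 0.591 in mac3a3b controls and 34.7 ± 1.19 in WT controls (SD, n = 3 each). MAC3B averaged 9.44 ± 0.581 TPM in mac3a3b at 3 days, 133 ± 4.69 in WT at 3 days, 10.4 ± 0.415 in mac3a3b controls and 72.6 ± 3.32 in WT controls (SD, n = 3 each).

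The endoplasmic reticulum (ER) takes up secretory and membrane proteins through the SEC61 channel, adds N-glycans, forms disulfide bonds and passes folded cargo to COPII vesicles. Proteins that fail to fold are recognised through trimmed glycans, ubiquitinated by membrane ligases such as HRD1, pulled into the cytosol by the ATPase CDC48 and carried to the proteasome, a route called ER-associated degradation (ERAD). In Arabidopsis, ERAD disposes of defective hormone receptors, and many genes of the ER are raised when unfolded proteins accumulate. From their annotation, the members were placed in 8 roles: translocation (13), N-glycosylation and glycan trimming (19), disulfide formation (17), ERAD recognition and ligases (36), extraction and delivery (33), COPII export (23), SCF and cytosolic ubiquitin genes (65), and other (77). KEGG assigns by similarity, so the last roles hold genes of the cytosol, chloroplast and peroxisome.

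Each comparison was a limma fit of log2(TPM + 1) over all genes kept, with Benjamini-Hochberg adjustment and a call at an adjusted p under 0.05. Fold changes are log2 differences on that scale ± SE, which understates changes of low genes, and those of the mutant over WT are positive where the mutant is higher. A value in parentheses after levels at 3 days is this difference between mac3a3b and WT at 3 days. The table gives no counts, so depth is unknown. The labels do not say that libraries of a group came from separate cultures, so p-values measure only the spread between these libraries, which may be technical. In every library TPM summed to 999986.2 to 999995.52, and between 18310 and 21139 genes reached 1 TPM. TPM is a share, and the rest of the library moved strongly: 3 green tissue markers summed to 1812 to 2637 TPM in mac3a3b at 3 days, 3345 to 4220 in WT at 3 days, 33521 to 34526 in mac3a3b controls and 37330 to 40275 in WT controls. Of these, RBCS1A averaged 2045 TPM in mac3a3b and 1980 in WT at 3 days, while LHCB1.3 averaged 157 and 1463 and PSAD-1 138 and 317. Vascular markers (4 genes) summed to 10.8 to 14.4 TPM in mac3a3b at 3 days, 55.1 to 55.8 in WT at 3 days, 70.5 to 83.5 in mac3a3b controls and 90.4 to 97.4 in WT controls. In WT they did not move together: at 3 days and in controls, IRX3 averaged 13.1 and 5.43 TPM and APL 21.85 and 11.5. SUC2 averaged 19.7 and 77.0, and VND7 0.69 and 1.00. Root markers (8 genes) summed to 15 to 16.1 TPM in mac3a3b at 3 days, 40.98 to 50.5 in WT at 3 days, 69.8 to 85.5 in mac3a3b controls and 70.2 to 79.8 in WT controls, with the root hair gene EXPA7 at 0 in the 3 mac3a3b libraries at 3 days. Nor did the root markers move together in WT. At 3 days and in controls, SCR averaged 14.97 and 13.27 TPM, SHR 11.26 and 9.497 and WOX5 3.36 and 2.03. Lower at 3 days were CASP1 (10.48 and 37.9), EXPA7 (3.13 and 7.34) and COBL9 (0.76 and 1.97). RHD6 (2.01 and 2.19) and PLT1 (1.103 and 1.17) changed little. The part of these tissue markers in the results was not tested. In bulk seedlings, fewer cells of a type and less RNA per cell cannot be told apart.

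Summed over all 283 members, the rows held 25643 ± 554 TPM in mac3a3b at 3 days, 16152 ± 332 in WT at 3 days, 9679.6 ± 128 in mac3a3b controls and 9796 ± 121 in WT controls (mean ± SD, n = 3). This sum includes the 65 SCF and cytosolic ubiquitin rows and the 77 other rows. Among the latter is the noncoding AT3G07365, with a log2 fold change of 9.56 in WT, whose reads cannot be told apart from those of a heat shock gene. Part of the rise at 3 days is therefore that of this row. The groups of 3 days lay above the controls without overlap, and mac3a3b lay above WT at 3 days. The sum of the translocation genes was 3155 ± 62 TPM in mac3a3b at 3 days, 1017 ± 61.7 in WT at 3 days, 936 ± 13.5 in mac3a3b controls and 988 ± 22.4 in WT controls (mean ± SD, n = 3), and that of the disulfide genes was 2358 ± 92.2 TPM in mac3a3b at 3 days, 918 ± 18.8 in WT at 3 days, 493 ± 13.4 in mac3a3b controls and 514 ± 4.26 in WT controls (mean ± SD, n = 3). For the N-glycan genes it was 963 ± 13.1 TPM in mac3a3b at 3 days, 1132 ± 21.9 in WT at 3 days, 656 ± 13.3 in mac3a3b controls and 656 ± 12.4 in WT controls (mean ± SD, n = 3). At 3 days their sum was lower in mac3a3b than in WT, but with each library divided by its median-of-ratios factor it was higher, at 1111 ± 44.0 in mac3a3b and 887 ± 11.8 in WT. The sums of the translocation, disulfide, ERAD, extraction, COPII and SCF genes were higher in mac3a3b without overlap on both scales. Between the control groups the role sums differed by little: the largest ratio, mac3a3b over WT, was 1.19 (other) and the smallest 0.868 (SCF and cytosolic ubiquitin).

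**Figure D1:**
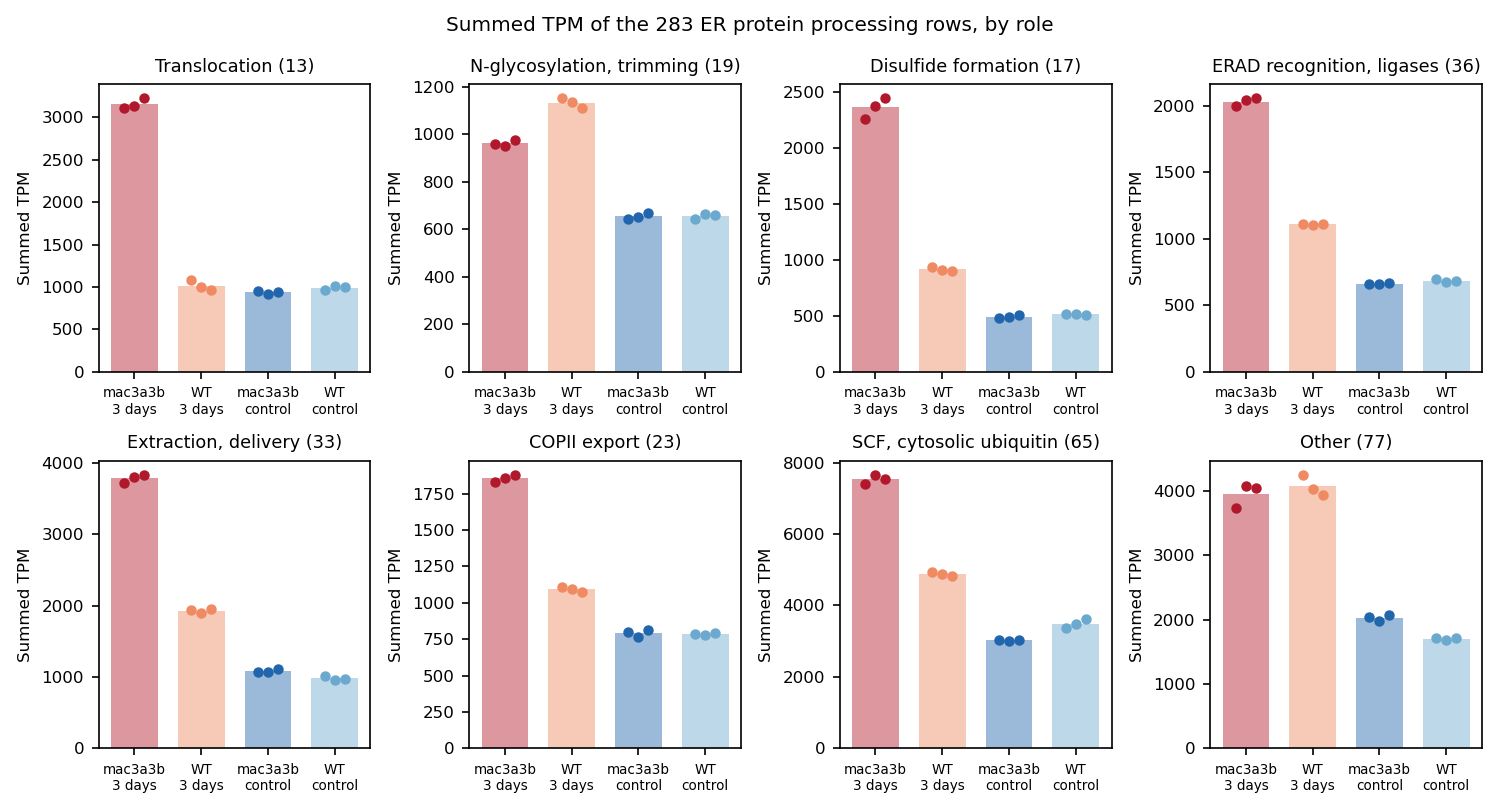
Summed TPM (y axis, from 0) of the members of each role in mac3a3b 3 days, WT 3 days, mac3a3b control and WT control libraries; bars are means, points the 3 libraries, and the number in each title counts the members. The translocation sum of 3155 TPM in mac3a3b at 3 days stands against 1017 in WT at 3 days, while the N-glycosylation sum is 963 in mac3a3b against 1132 in WT at 3 days, an order that turns under median-of-ratios scaling.

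At 3 days, 116 of the 251 members tested were higher in mac3a3b than in WT and 97 were lower. Of all 22462 genes tested, 24.1% were higher and 58.7% lower, so the members held more higher and fewer lower calls than the table as a whole. The median log2 fold change was 0.09 over the members and -0.51 over all genes. At least 2-fold, 53 members were higher and 50 lower, beside 8.1% and 32.7% of all genes. Scaling the libraries by median of ratios moved the median of all genes to -0.07 and gave 160 members higher and 60 lower (8612 and 9563 of all genes), and quantile normalization gave 152 and 66 (9050 and 8468 of all genes). Under one scaling or the other 34 of the called members changed sign, each of them called lower on TPM. Where a gene is given below as not called at 3 days with no scaling named, that holds on TPM and may not hold under the other scalings.

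The channel genes had the highest median of the 8 roles. Of the 12 translocation genes tested, 9 were higher in mac3a3b at 3 days and 1 was lower, beside 24.1% and 58.7% of all genes. Their median log2 fold change was 1.44, and 11 were higher and 0 lower with median-of-ratios scaling. SEC61 alpha forms the pore, and its copy AT2G34250 had 769.6, 869 and 847 TPM in mac3a3b at 3 days, 280.3, 271 and 267 in WT at 3 days, 164, 159 and 172 in mac3a3b controls and 184, 177 and 180.1 in WT controls. The copy AT1G29310 had 204, 217 and 209 TPM in mac3a3b at 3 days, 36.4, 34.4 and 35.3 in WT at 3 days, 26.2, 27.3 and 30.0 in mac3a3b controls and 29.9, 29 and 30.3 in WT controls. Both were highest in every mac3a3b library of 3 days, and their fold changes over WT were 1.60 ± 0.051 and 2.54 ± 0.051 (limma adjusted p = 9.23e-11 and 5.93e-12).

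SEC61 beta and gamma are the small subunits of the channel. For SEC61beta (AT2G45070), the libraries gave 984, 873 and 967 TPM in mac3a3b at 3 days, 206, 178 and 159.8 in WT at 3 days, 226, 225 and 213 in mac3a3b controls and 218, 224 and 231 in WT controls. In mac3a3b this gene was higher at 3 days than in controls (2.08 ± 0.081, adjusted p = 2.01e-10), while in WT it was lower (-0.31 ± 0.081, adjusted p = 0.00357). A second beta copy, AT3G60540, had 52.6, 47.1 and 58.4 TPM in mac3a3b at 3 days, 6.61, 4.37 and 3.72 in WT at 3 days, 3.45, 2.62 and 3.27 in mac3a3b controls and 5.02, 6.88 and 6.63 in WT controls, and its difference of 3.21 ± 0.17 was the largest among the translocation genes. The third beta copy, AT5G60460, did not share this: it had 46.5, 41.2 and 40.1 TPM in mac3a3b at 3 days, against 64.2, 53.9 and 53.9 in WT at 3 days, a difference of -0.42 ± 0.088 that changed to 0.13 under median-of-ratios scaling. It rose at 3 days in both genotypes, by 1.23 ± 0.088 in mac3a3b and 1.11 ± 0.088 in WT. The difference of these responses was 0.11 ± 0.12 (adjusted p = 0.418), but it was 0.74 and called under median-of-ratios scaling and 0.36 and called under quantile normalization.

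The 3 gamma copies were higher in mac3a3b as well. AT5G50460 had 381, 380.1 and 405 TPM in mac3a3b at 3 days, against 104, 92 and 82.4 in WT at 3 days. AT4G24920 had 219, 243 and 244 TPM in mac3a3b at 3 days, against 48.7, 46.9 and 41.5 in WT at 3 days. The gamma copy AT3G48570 had 49.1, 50.0 and 55.8 TPM in mac3a3b at 3 days, against 22.1, 19.9 and 19.8 in WT at 3 days. Their fold changes over WT were 2.06, 2.34 and 1.28, without overlap between the groups. AT4G24920 overlaps a neighbouring gene in the RefSeq table (TAIR10.1), and since the use of strand is not stated, reads of the pair cannot be told apart. Differences were smaller for partners of the channel: SEC62, a subunit for post-translational import, had 70.9, 68.8 and 65.5 TPM in mac3a3b at 3 days, against 60.2, 61.9 and 61.7 in WT at 3 days (0.16 ± 0.070, adjusted p = 0.058), and the TRAP genes AT2G21160 and AT5G14030 differed by 0.55 ± 0.044 and 0.35 ± 0.050. A further TRAP gene, AT2G16595, was not called between the genotypes at 3 days. It fell against controls in both, with a change of -0.67 in WT, and its sign in mac3a3b turned under quantile normalization. Against controls, 11 translocation genes were higher in mac3a3b at 3 days and 1 was lower, beside 39.4% and 46.5% of all genes. Under quantile normalization these were 9 and 2, beside 10036 and 9196 of all 22462 genes. In WT, 5 translocation genes were higher at 3 days and 5 lower, beside 54.9% and 26.4% of all genes. Under median-of-ratios scaling these were 3 and 8, beside 8924 and 8872 of all 22462 genes.

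Of 18 N-glycan genes, 5 were higher in mac3a3b at 3 days and 11 lower, with a median of -0.29, but this order turned to 9 higher and 5 lower under median-of-ratios scaling and was 4 and 9 under quantile normalization. These shares of 27.8% and 61.1% are near the 24.1% and 58.7% of all genes, whose median was -0.51. Of 5 glucosidase genes, 0 were higher and 4 lower. GCS1, glucosidase I, which removes the first glucose from the new glycan, had 1.78, 2.02 and 2.09 TPM in mac3a3b at 3 days, 15.1, 15.3 and 17.6 in WT at 3 days, 11, 11.1 and 12.4 in mac3a3b controls and 9.42, 9.54 and 9.76 in WT controls. It fell in mac3a3b (-2.07 ± 0.078) and rose in WT (0.68 ± 0.078), and at 3 days it was lower in mac3a3b, with a difference of -2.52 ± 0.078 (adjusted p = 7.6e-11). PSL4, the beta subunit of glucosidase II, had 52.1, 50.6 and 48.2 TPM in mac3a3b at 3 days, 147, 156 and 149.7 in WT at 3 days, 29.1, 30.9 and 31.6 in mac3a3b controls and 41.4, 39.3 and 37.2 in WT controls. It rose in both genotypes, but to a level in mac3a3b that was lower, with a difference of -1.56 ± 0.050. RSW3, the catalytic alpha subunit of the same enzyme, was close between the genotypes, with 118, 119.6 and 124 TPM in mac3a3b at 3 days, against 138, 146 and 140.3 in WT at 3 days, and its difference of -0.23 ± 0.035 became 0.32 under median-of-ratios scaling.

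Oligosaccharyltransferase transfers the glycan to the new protein. Of its 9 subunit genes tested, 3 were higher and 5 lower in mac3a3b, a split near the 24.1% and 58.7% of all genes. Its most abundant gene, AT1G61790, an OST3/OST6-type subunit, had 205, 214 and 217 TPM in mac3a3b at 3 days, 188, 184 and 181 in WT at 3 days, 67, 66.3 and 68.1 in mac3a3b controls and 73.7, 72.9 and 74.9 in WT controls. It rose in both genotypes, by 1.65 ± 0.035 in mac3a3b and 1.31 ± 0.035 in WT. The ribophorin I gene AT1G76400 had 27.5, 23.4 and 22.6 TPM in mac3a3b at 3 days, against 51.2, 51.5 and 50.2 in WT at 3 days (-1.03 ± 0.071). HAP6, ribophorin II, had 39.4, 33.5 and 37.7 TPM in mac3a3b at 3 days, against 65.6, 66.6 and 71 in WT at 3 days (-0.86 ± 0.055). These pairs of groups did not overlap. A second ribophorin I gene, AT2G01720, went the other way (0.38 ± 0.039). Of the catalytic subunits, STT3A had 33.5, 31.3 and 32.7 TPM in mac3a3b at 3 days, against 49.9, 51.1 and 49.3 in WT at 3 days (-0.61 ± 0.044, which was -0.06 and not called under median-of-ratios scaling). STT3B differed by -0.07 ± 0.053 (adjusted p = 0.255).

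After glucose trimming, UGGT tests the fold, and mannosidases of the ER and Golgi trim mannose from the glycan. EBS1, the UGGT gene, had 26.3, 29.3 and 30.7 TPM in mac3a3b at 3 days, against 39.9, 36.7 and 38.2 in WT at 3 days, a difference of -0.40 ± 0.059 that was 0.14 under median-of-ratios scaling. MNS3, the ER mannosidase, had 47.9, 51 and 50.0 TPM in mac3a3b at 3 days, 21.6, 18.6 and 19 in WT at 3 days, 14.6, 13 and 16.5 in mac3a3b controls and 14.8, 12 and 13.3 in WT controls. It was the N-glycan gene with the largest rise over WT (1.29 ± 0.093), and the 3 mac3a3b libraries at 3 days stood apart from the 9 others. MNS2, a Golgi mannosidase, was higher by 0.55 ± 0.064, and its close relative MNS1 lower, with a difference of -0.43 ± 0.068, which became 0.11 under median-of-ratios scaling.

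Disulfide genes split. Of 17 tested, 8 were higher in mac3a3b at 3 days and 6 lower, beside 24.1% and 58.7% of all genes. The median was -0.07, and median-of-ratios scaling gave 11 higher and 4 lower with a median of 0.46. PDIL2-3, a protein disulfide isomerase (PDI) of the P5 type, had 963, 985 and 1048 TPM in mac3a3b at 3 days, 174, 159 and 154 in WT at 3 days, 46.9, 48.9 and 49.1 in mac3a3b controls and 45.4, 50.8 and 46 in WT controls. It rose in both genotypes, and its difference at 3 days was 2.62 ± 0.058 (adjusted p = 1.09e-11). PDIL1-2 had 340.3, 383 and 385 TPM in mac3a3b at 3 days, 74.2, 70.5 and 70.1 in WT at 3 days, 33.7, 36.2 and 37.5 in mac3a3b controls and 36.8, 37.9 and 41.1 in WT controls. PDIL2-2 had 182, 197 and 206 TPM in mac3a3b at 3 days, 50.6, 47.3 and 46.3 in WT at 3 days, 8.69, 7.5 and 8.04 in mac3a3b controls and 12.3, 13 and 12.4 in WT controls. In both, every mac3a3b library of 3 days was above every WT library of 3 days, which in turn was above all controls. PDIL2-1 differed by 1.17 ± 0.046.

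ERO1 reoxidises PDI and so drives disulfide formation. It had 27.1, 32.8 and 30.0 TPM in mac3a3b at 3 days, 5.71, 5.73 and 5.54 in WT at 3 days, 2.26, 2.2 and 2.5 in mac3a3b controls and 3.33, 2.91 and 2.92 in WT controls, with a difference of 2.21 ± 0.082 at 3 days. Its paralog ERO2 had 17.9, 16.1 and 16 TPM in mac3a3b at 3 days, against 19, 17.3 and 16.4 in WT at 3 days, and the groups overlapped on TPM (-0.07 ± 0.091, adjusted p = 0.459). With each library divided by its median-of-ratios factor, the ERO2 groups did not overlap, and mac3a3b was higher. QSOX2, a sulfhydryl oxidase related to QSOX proteins of the Golgi and cell surface, had 28.4, 31.6 and 32.3 TPM in mac3a3b at 3 days, 109, 114 and 113 in WT at 3 days, 22, 20.9 and 22.4 in mac3a3b controls and 24.7, 22.1 and 24.3 in WT controls. It rose in mac3a3b by 0.48 ± 0.059 and in WT by 2.19 ± 0.059, and overlaps AT2G01275 in the RefSeq table. PDIL5-2 fell in both genotypes, with 13.5, 13.4 and 14.5 TPM in mac3a3b at 3 days, 26.6, 26.9 and 28.1 in WT at 3 days, 40.8, 42.1 and 42.6 in mac3a3b controls and 44.1, 42.6 and 41 in WT controls. PDIL1-5 had 4.4, 3.42 and 3.04 TPM in mac3a3b at 3 days, against 9.37, 11.3 and 10.1 in WT at 3 days (-1.29 ± 0.11).

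**Figure D2:**
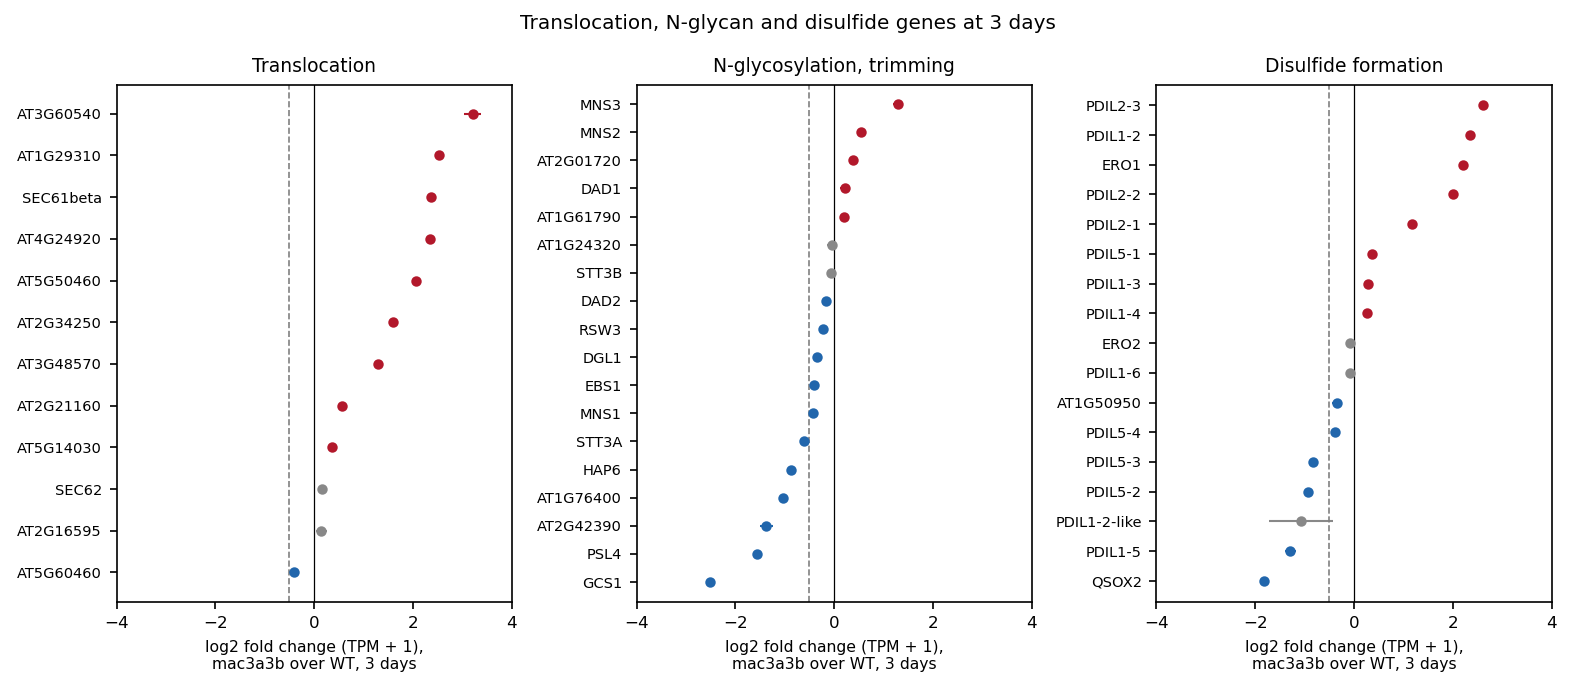
Log2 fold change of TPM + 1 (x axis), mac3a3b over WT at 3 days, of each gene tested in 3 roles; points are limma estimates with SE bars, red higher, blue lower and grey not called, and the dashed line is the median of all genes (-0.51). The SEC61 genes other than AT5G60460 lie at the right up to 3.21 and GCS1 at the left at -2.52. The SEC61 beta gene AT5G60460 and MNS1, EBS1, RSW3, DGL1, DAD2, PDIL5-4 and AT1G50950, drawn blue, change sign under median-of-ratios scaling, the last of them under quantile normalization as well.

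Genes of the role of ERAD recognition and ligases were called higher in mac3a3b at 3 days in 20 of 35 and lower in 12, beside 24.1% and 58.7% of all genes. Their median was 0.29, and the split was 23 and 9 under median-of-ratios scaling. The 35 include 5 genes similar to BAP31, which are not ligases. HRD1B, a RING ligase of the ER membrane, had 166, 168 and 167 TPM in mac3a3b at 3 days, 33.6, 32.5 and 33.7 in WT at 3 days, 13.7, 13.5 and 13.6 in mac3a3b controls and 24.2, 24.6 and 25.1 in WT controls. Among controls it was lower in mac3a3b (-0.81 ± 0.034, adjusted p = 2.81e-08), and at 3 days it was higher by 2.29 ± 0.034 (adjusted p = 1.91e-12). Its partner copy HRD1A had 11.4, 12 and 13.7 TPM in mac3a3b at 3 days, against 19.1, 16.7 and 19.3 in WT at 3 days, a difference of -0.54 ± 0.075 that was -0.02 under median-of-ratios scaling and 0.03 under quantile normalization.

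HRD3 hands substrates to HRD1. EBS5, the HRD3A gene, had 119, 138 and 139 TPM in mac3a3b at 3 days, 54.2, 49.5 and 49.8 in WT at 3 days, 26.4, 23.8 and 24.3 in mac3a3b controls and 23.8, 25.5 and 24.5 in WT controls, rising in both genotypes and standing higher in mac3a3b by 1.35 ± 0.066. HRD3B, the second copy, had 0.4, 0.4 and 0.17 TPM in mac3a3b at 3 days, 4.31, 5.16 and 5.12 in WT at 3 days, 4.17, 3.03 and 3.81 in mac3a3b controls and 3.5, 3.53 and 3.93 in WT controls. It was lower, with a difference of -2.15 ± 0.12. The groups of both copies did not overlap at 3 days, and the copies differed from WT in opposite directions. Derlins are membrane proteins of the exit channel, and all 3 were higher in mac3a3b: DER2.1 had 204, 214 and 227 TPM in mac3a3b at 3 days, 44.8, 47.8 and 42.1 in WT at 3 days, 31.8, 32.7 and 32.6 in mac3a3b controls and 34.5, 33.5 and 34.9 in WT controls (2.24 ± 0.052), DER2.2 differed by 1.13 ± 0.065 and DER1 by 0.56 ± 0.079. DER2.1 overlaps QQT2 in the RefSeq table.

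Of 3 recognition genes, 1 was higher and 2 were lower, beside 24.1% and 58.7% of all genes. MNS4 and MNS5 trim the mannose signal that marks a misfolded glycoprotein. MNS4 had 7.18, 8.07 and 7.88 TPM in mac3a3b at 3 days, against 16.6, 16.5 and 17.2 in WT at 3 days (-1.03 ± 0.069). MNS5 had 7.34, 7.03 and 7.26 TPM in mac3a3b at 3 days, against 19, 19.9 and 21.2 in WT at 3 days (-1.36 ± 0.057). OS9, the lectin that reads the signal, differed by 0.22 ± 0.063, with 35.9, 36.2 and 33.4 TPM in mac3a3b at 3 days, against 29.6, 28.8 and 31.4 in WT at 3 days. The groups of MNS4 and MNS5 did not overlap, with mac3a3b at 3 days the lowest of the 4 groups in both.

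Ubiquitin-conjugating enzymes (E2) of ERAD were higher in mac3a3b in 5 of 6 genes, beside 24.1% of all genes. UBC32, a stress-responsive E2 of the ER membrane, had 103, 114 and 108 TPM in mac3a3b at 3 days, 40.9, 40.5 and 39.6 in WT at 3 days, 29, 27.9 and 28.2 in mac3a3b controls and 24.5, 21.2 and 26.1 in WT controls (1.40 ± 0.066). UBC7 was the most abundant, with 239, 250.5 and 245 TPM in mac3a3b at 3 days, 117, 122 and 125 in WT at 3 days, 43.6, 48.5 and 43.2 in mac3a3b controls and 54.6, 48.2 and 40.1 in WT controls. It rose in both genotypes, by 2.42 ± 0.090 in mac3a3b and 1.34 ± 0.090 in WT. UBC33 differed by 0.06 ± 0.050 (adjusted p = 0.268). CER9, a DOA10-type ligase known for its part in wax and sterol control, had 107, 117 and 121 TPM in mac3a3b at 3 days, 69.9, 66.3 and 68.8 in WT at 3 days, 39.3, 40.0 and 40.5 in mac3a3b controls and 40.5, 37.5 and 37.2 in WT controls (0.74 ± 0.052), while a DOA10-like gene, AT4G32670, was lower (-1.23 ± 0.071).

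Genes similar to BAP31, a membrane cargo protein of the ER known best in animals, were 5. Of these, 2 were higher and 3 lower, each by more than 2-fold, beside 8.1% and 32.7% of all genes at that size. AT5G42570 had 175, 177 and 183 TPM in mac3a3b at 3 days, 47.4, 46.6 and 42 in WT at 3 days, 28.9, 31.6 and 31.3 in mac3a3b controls and 26.7, 24.2 and 24.2 in WT controls. AT5G48660 had 0, 0.28 and 0 TPM in mac3a3b at 3 days, 4.38, 3.76 and 3.86 in WT at 3 days, 8.28, 6.77 and 8.45 in mac3a3b controls and 9.23, 8.41 and 7.09 in WT controls, and so was near 0 in mac3a3b at 3 days. Their differences were 1.96 ± 0.058 and -2.20 ± 0.13. The RMA family holds small membrane-anchored RING ligases. RMA2 had 14.4, 6.21 and 5.82 TPM in mac3a3b at 3 days, against 19.1, 19.7 and 22.8 in WT at 3 days, with 1 mac3a3b library nearer to WT than the other two (-1.24 ± 0.25), and RMA1 is described with the controls.

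CDC48 extracts ubiquitinated proteins with its cofactor UFD1 and NPL4. Of the 31 extraction genes, 15 were higher in mac3a3b at 3 days and 11 lower, beside 24.1% and 58.7% of all genes. Their median was 0.08, and under median-of-ratios scaling 23 were higher and 4 lower. CDC48A had 934, 979 and 992 TPM in mac3a3b at 3 days, 285, 291 and 288 in WT at 3 days, 198, 204 and 218 in mac3a3b controls and 218, 193 and 189 in WT controls (1.75 ± 0.058). CDC48D, a close copy, was low in controls and had 757, 738 and 759 TPM in mac3a3b at 3 days, 209, 202 and 211 in WT at 3 days, 9.7, 8.83 and 10.4 in mac3a3b controls and 5.79, 3.92 and 4.91 in WT controls, which was a rise of 6.14 ± 0.095 in mac3a3b and 5.16 ± 0.095 in WT. CDC48E had 197, 199 and 197 TPM in mac3a3b at 3 days, against 60.1, 59.2 and 61.2 in WT at 3 days. The CDC48 copies are alike in sequence, so the division of their reads is uncertain. NPL4-1 had 253, 219.9 and 234 TPM in mac3a3b at 3 days, 52.6, 46.5 and 47.3 in WT at 3 days, 28.1, 32 and 32.08 in mac3a3b controls and 30.2, 28.3 and 26.5 in WT controls (2.25 ± 0.075), and 3 of 4 UFD1 genes were higher, by 0.70 to 0.86. The related ATPases CDC48B and CDC48C were lower, with differences of -0.69 ± 0.12 (0.17 under quantile normalization) and -0.63 ± 0.056. Neither was called under median-of-ratios scaling, at -0.20 and -0.10.

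RAD23 proteins carry ubiquitinated cargo to the proteasome, and 2 copies differed from WT at 3 days in opposite directions, though both rose in both genotypes. RAD23D had 270.3, 285 and 292 TPM in mac3a3b at 3 days, 143, 129.8 and 138 in WT at 3 days, 121, 120.1 and 126 in mac3a3b controls and 92.1, 94.2 and 96.4 in WT controls (1.04 ± 0.046). RAD23C had 66.6, 84.9 and 88.2 TPM in mac3a3b at 3 days, 172, 188 and 198 in WT at 3 days, 48.7, 48.9 and 48.6 in mac3a3b controls and 55.8, 54 and 57.9 in WT controls (-1.22 ± 0.090), so that RAD23D was the higher copy in mac3a3b at 3 days and RAD23C in WT at 3 days. The ubiquilins DSK2a and DSK2b, shuttles as well, were higher by 0.70 ± 0.085 and 0.35 ± 0.046. OTU1, a deubiquitinase that acts with CDC48, had 18.1, 17.1 and 16.6 TPM in mac3a3b at 3 days, 48.6, 48.2 and 44.8 in WT at 3 days, 38.8, 41.2 and 40.6 in mac3a3b controls and 50.0, 54.5 and 49.9 in WT controls. It was lower, with a difference of -1.40 ± 0.053. PUX5, a UBX adaptor of CDC48, was higher by 1.52 ± 0.079.

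**Figure D3:**
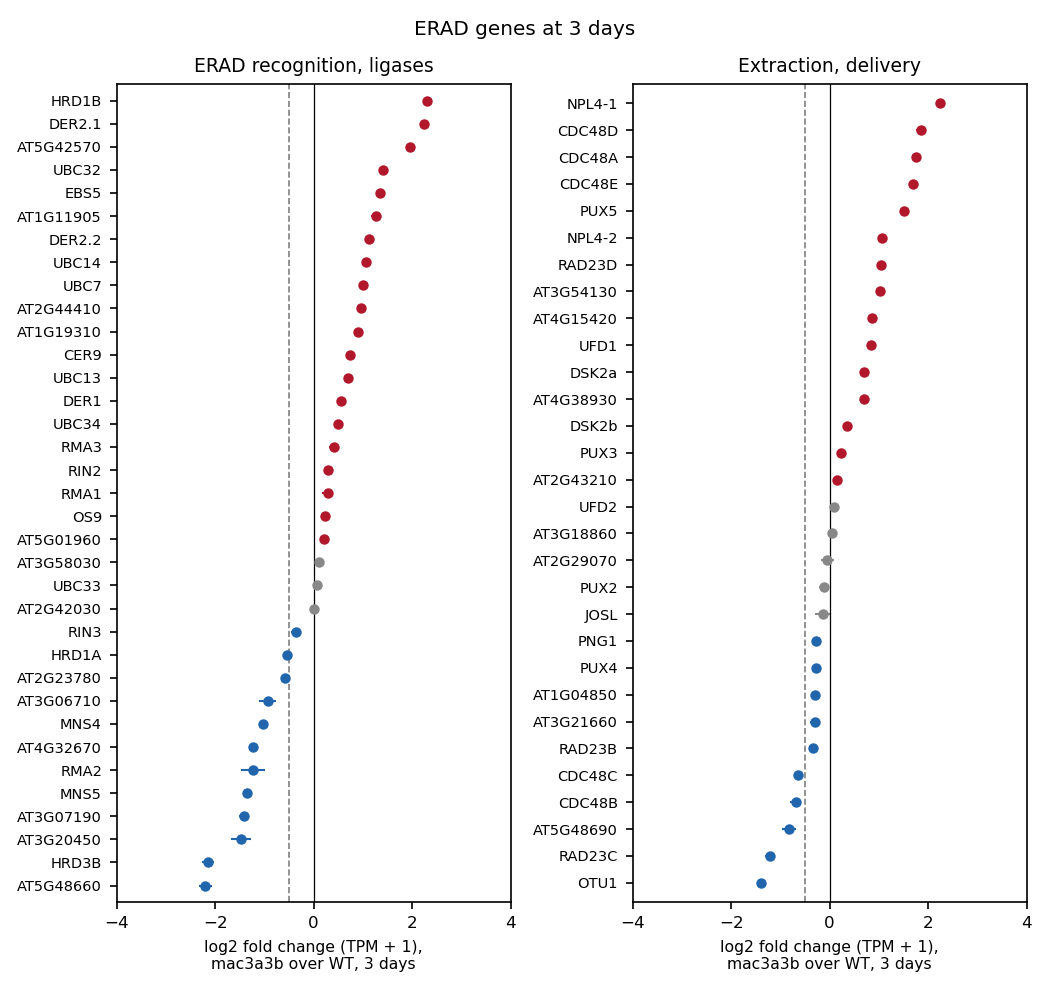
Log2 fold change of TPM + 1 (x axis), mac3a3b over WT at 3 days, of the 35 ERAD recognition and ligase genes and the extraction and delivery genes tested, less 1 gene; points are limma estimates with SE bars, red higher, blue lower and grey not called, and the dashed line is the median of all genes (-0.51). HRD1B, DER2.1 and NPL4-1 lie above 2.2 while HRD3B and AT5G48660 lie below -2.1; HRD1A, CDC48B, PNG1, PUX4, RAD23B, AT3G06710 and AT3G21660, drawn blue, change sign under quantile normalization, and RIN3, AT1G04850, PNG1, PUX4, RAD23B and AT3G21660 under median-of-ratios scaling.

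COPII genes were higher in mac3a3b at 3 days in 11 of 23 and lower in 6, beside 24.1% and 58.7% of all genes. Their median was 0.09, and the split was 18 and 3 under median-of-ratios scaling. SAR1 GTPases start the coat. SAR1B had 578, 603 and 606 TPM in mac3a3b at 3 days, 187, 191 and 190.0 in WT at 3 days, 183, 172 and 181 in mac3a3b controls and 195, 201 and 197 in WT controls. It rose in mac3a3b (1.73 ± 0.037) while in WT it was not called (-0.06 ± 0.037, adjusted p = 0.133; called lower, at -0.51, under median-of-ratios scaling). The difference of these responses was 1.80 ± 0.053. AT3G62560, a further SAR1 gene, rose in both genotypes, with 347, 353 and 351 TPM in mac3a3b at 3 days, 184, 181 and 171 in WT at 3 days, 52.5, 51.3 and 48.4 in mac3a3b controls and 41.8, 42.4 and 43.2 in WT controls. SEC13B, of the outer coat, had 144, 140.3 and 147 TPM in mac3a3b at 3 days, 51.5, 53 and 48.4 in WT at 3 days, 44.4, 46.3 and 47.6 in mac3a3b controls and 44.7, 41.9 and 43.4 in WT controls (1.48 ± 0.046), and its copy SEC13A differed by 0.75 ± 0.059. SEC31A, also of the outer coat, had 5.45, 4.9 and 5.65 TPM in mac3a3b at 3 days, 1.91, 2.42 and 1.87 in WT at 3 days, 0.15, 0.14 and 0.2 in mac3a3b controls and 0.11, 0.12 and 0.13 in WT controls, with levels below 0.3 TPM in all 6 control libraries. SEC31B, its more abundant copy, had 48.1, 54.4 and 53.1 TPM in mac3a3b at 3 days, against 63, 61.8 and 63.1 in WT at 3 days, a difference of -0.27 ± 0.052 that was 0.28 under median-of-ratios scaling.

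SEC12 proteins load SAR1 with GTP. The SEC12-type genes AT5G50650 and AT5G50550 had 3.31, 2 and 2.06 TPM in mac3a3b at 3 days, against 13.6, 13 and 13.5 in WT at 3 days for the first, and 3, 2.31 and 2.5 TPM in mac3a3b at 3 days, against 7.48, 8.98 and 9.27 in WT at 3 days for the second. Their differences were -2.07 ± 0.12 and -1.41 ± 0.11. The 2 are close copies, and both overlap neighbours in the RefSeq table, so each value is uncertain. PHF1, which guides phosphate transporters out of the ER, differed by 0.03 ± 0.067 (adjusted p = 0.658). Of the inner coat genes, 7 for SEC23 and 3 for SEC24, none differed by 2-fold, and the largest difference was that of AT3G23660 (-0.91 ± 0.058).

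The SCF and cytosolic ubiquitin genes were higher in mac3a3b at 3 days in 31 of 52 and lower in 14, beside 24.1% and 58.7% of all genes. Their median was 0.43, and the split was 37 and 11 under median-of-ratios scaling. The 52 include SK3 and SK8, which reached 1 TPM only in mac3a3b at 3 days and so add no support for a difference. SK7, which would fail the filter without those libraries, adds none either. SKP1 is the adaptor between cullin and F-box protein in SCF ligases. It had 1095, 1121 and 1161 TPM in mac3a3b at 3 days, 247, 240.5 and 224 in WT at 3 days, 259, 256 and 244 in mac3a3b controls and 214, 228 and 231 in WT controls (2.24 ± 0.050). SKP1B differed by 0.95 ± 0.054, and CUL1, the scaffold, by 0.59 ± 0.043. RBX1, the RING subunit, had 198, 180.2 and 189 TPM in mac3a3b at 3 days, against 194, 168 and 170.1 in WT at 3 days (0.10 ± 0.059, adjusted p = 0.155).

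The SKP1-like family held genes that were near 0 in controls. SK12 had 97.3, 93.8 and 106 TPM in mac3a3b at 3 days, 9.04, 11.5 and 8.77 in WT at 3 days, 0, 0.14 and 0.15 in mac3a3b controls and 0.28, 0 and 0.15 in WT controls. SK9 had 40.6, 36.3 and 34.8 TPM in mac3a3b at 3 days, 2.24, 2.24 and 1.96 in WT at 3 days, 0.67, 0 and 0.04 in mac3a3b controls and 0, 0.15 and 0 in WT controls. SK7 had 14.6, 15.1 and 11.4 TPM in mac3a3b at 3 days, against 0.8, 1.09 and 2.29 in WT at 3 days, with 0 in all 6 control libraries. SK8 had 12.6, 15.5 and 8.45 TPM in mac3a3b at 3 days and was listed at 0 in the 9 other libraries. SK7, SK8, SK9 and SK10 lie next to each other and are alike, so their values may share reads. Not all of the family moved this way: SK20 had 5.43, 6.11 and 4.93 TPM in mac3a3b at 3 days, against 15.9, 18.2 and 18 in WT at 3 days (-1.50 ± 0.076), and SK21 had 5.31, 6.09 and 5.71 TPM in mac3a3b at 3 days, against 17.8, 17.1 and 17.8 in WT at 3 days (-1.47 ± 0.057). SK18 was lower, with a difference of -1.03 ± 0.13.

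Among the other conjugating enzymes, 17 of 29 were higher in mac3a3b at 3 days and 8 lower, beside 24.1% and 58.7% of all genes. UBC5 had 3.11, 3.67 and 3.2 TPM in mac3a3b at 3 days, 43.5, 43.4 and 42.6 in WT at 3 days, 38.8, 35.3 and 36.6 in mac3a3b controls and 71.7, 75.7 and 77 in WT controls, a difference of -3.35 ± 0.057 at 3 days (adjusted p = 2.47e-12). UBC4, of the same subfamily, had 78.1, 62.8 and 63.4 TPM in mac3a3b at 3 days, against 47.1, 50.5 and 53.1 in WT at 3 days (0.43 ± 0.078). UBC17 had 1.23, 1.98 and 1.54 TPM in mac3a3b at 3 days, 18.9, 19.1 and 21.7 in WT at 3 days, 32.8, 27.6 and 24.7 in mac3a3b controls and 23, 24.6 and 28.8 in WT controls, and its difference was -3.02 ± 0.13. The libraries of mac3a3b at 3 days were the lowest of the 12 for both UBC5 and UBC17. SCE1, the SUMO-conjugating enzyme, had 664, 664 and 641 TPM in mac3a3b at 3 days, 177, 185 and 177 in WT at 3 days, 155, 154 and 149 in mac3a3b controls and 143, 158 and 148 in WT controls (1.86 ± 0.044). UBC35 and UBC36 make a particular kind of ubiquitin chain with a partner of the MMZ type, and were higher by 1.61 ± 0.048 and 1.56 ± 0.045. MMZ2, such a partner, was lower, with a difference of -1.01 ± 0.063. In the RefSeq table MMZ2 overlaps another member, AT1G70650, and UBC36 overlaps ACR11. UBC28 had 224, 261 and 241 TPM in mac3a3b at 3 days, against 541, 566 and 547 in WT at 3 days (-1.19 ± 0.057).

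**Figure D4:**
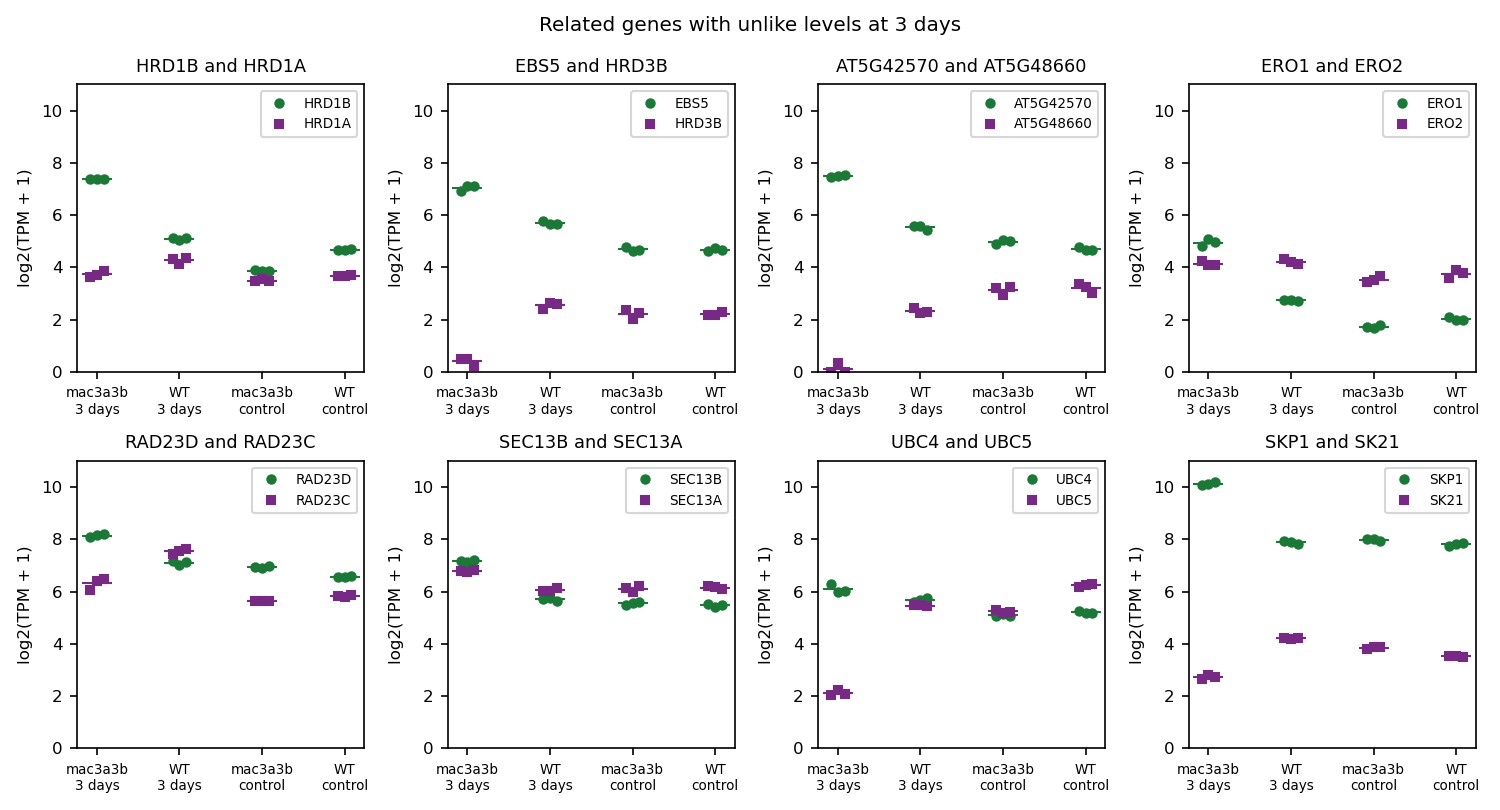
log2(TPM + 1) (y axis) of 8 pairs of related members in mac3a3b 3 days, WT 3 days, mac3a3b control and WT control libraries; points are the 3 libraries and dashes their mean. In each pair the first gene is the higher one in mac3a3b at 3 days; HRD1B averaged 167 TPM there against 33.2 TPM in WT at 3 days.

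Among the 63 other genes tested, 17 were higher in mac3a3b at 3 days and 36 lower, with a median of -0.43 (28 and 24, with a median of 0.11, under median-of-ratios scaling). These shares of 27% and 57.1% are near the 24.1% and 58.7% of all genes, whose median was -0.51. Here belong 10 chaperone-like genes that the wording of the rule leaves in. SIL1, a nucleotide exchange factor for the ER chaperone BiP, had 168, 175 and 192 TPM in mac3a3b at 3 days, 25.2, 23.9 and 25.5 in WT at 3 days, 24.9, 24.1 and 24.4 in mac3a3b controls and 20.7, 17.6 and 18.7 in WT controls (2.79 ± 0.064). P58IPK, an ER J-domain protein, had 183, 208 and 209 TPM in mac3a3b at 3 days, 56, 49.4 and 49 in WT at 3 days, 29, 27 and 27.2 in mac3a3b controls and 25.3, 24.5 and 22.8 in WT controls (1.94 ± 0.069). SIL1 overlaps ASAT1 in the RefSeq table. Fes1A, an exchange factor of the cytosol, rose in both genotypes, by 3.19 ± 0.095 in mac3a3b and 2.52 ± 0.095 in WT, and Fes1B was lower in mac3a3b at 3 days, with a difference of -2.57 ± 0.12.

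Of 37 genes of other annotation that KEGG places in this pathway, 8 were higher and 26 lower, shares of 21.6% and 70.3% beside 24.1% and 58.7% of all genes. STN8, a thylakoid protein kinase, had 14.2, 16.2 and 17.5 TPM in mac3a3b at 3 days, 142, 158 and 163 in WT at 3 days, 63.7, 72.8 and 69.1 in mac3a3b controls and 59.1, 52.3 and 53.2 in WT controls (-3.20 ± 0.083). XYL1, a xylosidase of the cell wall that resembles glucosidase II, had 30.5, 31.4 and 29.3 TPM in mac3a3b at 3 days, 168, 176 and 179 in WT at 3 days, 113, 118 and 120.1 in mac3a3b controls and 119, 108 and 112 in WT controls (-2.48 ± 0.046). AT5G11720, annotated as a glycosyl hydrolase, had 2.67, 2.35 and 2.03 TPM in mac3a3b at 3 days, against 19, 16.6 and 19 in WT at 3 days (-2.52 ± 0.096). STN8 overlaps a neighbour in the RefSeq table. Without the genes of other annotation, the genes with no description and the chaperone-like genes, 101 of 194 members were higher and 62 lower.

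Of 6 stress sensing and translation genes, 2 were higher and 1 lower, beside 24.1% and 58.7% of all genes. GCN2, the kinase of the translation factor eIF2 alpha, had 3.11, 3.17 and 3.01 TPM in mac3a3b at 3 days, against 8.05, 8.19 and 7.38 in WT at 3 days (-1.11 ± 0.071, which was -0.16 and not called under quantile normalization), while EIF2alpha was higher by 0.32 ± 0.050. S1P and S2P, proteases that release membrane-bound factors, differed by 0.11 ± 0.054 and -0.02 ± 0.077 (adjusted p = 0.077 and 0.85). Of the 19 members with no description, none is protein coding in RefSeq, and 10 were tested. AT3G07365, a long noncoding RNA, had 1001, 1123 and 1104 TPM in mac3a3b at 3 days, 1685, 1457 and 1329 in WT at 3 days, 0.88, 0 and 1.33 in mac3a3b controls and 0.37, 2.35 and 0.64 in WT controls. It overlaps a heat shock gene that is no member, and reads of the pair cannot be told apart.

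In WT, 178 of the 251 members were higher at 3 days than in controls and 37 were lower, beside 54.9% and 26.4% of all genes. The median was 0.56 over the members and 0.39 over all genes. At least 2-fold, 65 were higher and 6 lower, beside 26.2% and 11.5% of all genes, so that the share of members higher by 2-fold was near that of the table. Under median-of-ratios scaling, which took the median of all genes to 0.01, 118 were higher and 85 lower (8924 and 8872 of all genes). Quantile normalization gave 127 and 81 (8965 and 8874 of all genes). Under one scaling or the other, 37 of the members called higher changed sign, HRD1B and DER2.1 among these. The largest rises in WT were those of AT3G07365 (9.56), AT1G46048, CDC48D (5.16) and CUL2. CUL2, a cullin, had 41.1, 49.5 and 48.8 TPM in mac3a3b at 3 days, 40.0, 35.1 and 33.2 in WT at 3 days, 0.14, 0.11 and 0.18 in mac3a3b controls and 0.02, 0.1 and 0.09 in WT controls. UBC12 had 53.4, 47.4 and 45.2 TPM in mac3a3b at 3 days, 32.5, 33.2 and 31 in WT at 3 days, 0.36, 0.4 and 0.34 in mac3a3b controls and 0.68, 0.86 and 1.24 in WT controls. RIN3, a RING ligase known from pathogen defence, rose in both genotypes, by 2.25 ± 0.088 in mac3a3b and 2.47 ± 0.088 in WT. The difference of these responses was -0.22 ± 0.12 (adjusted p = 0.133), and it turned to 0.41, a called value, under median-of-ratios scaling and to 0.02 under quantile normalization.

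In mac3a3b, 162 members were higher at 3 days than in controls and 67 lower, beside 39.4% and 46.5% of all genes. The median was 0.63 over the members and -0.13 over all genes. At least 2-fold, 100 were higher and 34 lower, beside 22.1% and 29.8% of all genes. Both responses went up in 136 members and down in 22, while 29 were lower in mac3a3b and higher in WT and 12 were higher in mac3a3b and lower in WT. These joint classes were not counted over all genes, so the counts only describe the members and cannot be set against the table. The 12 included SEC61beta, AT4G24920, UBC35 and ACD32.1, and the 29 included GCS1, SK20, SK21, STN8 and XYL1, with the same signs under both scalings; HRD3B, MNS4 and MNS5, also of the 29, changed sign in 1 genotype under at least 1 scaling. UBC35 had 93.4, 99.7 and 93.4 TPM in mac3a3b at 3 days, 30.0, 30.7 and 30.9 in WT at 3 days, 60.8, 63.2 and 65.6 in mac3a3b controls and 70.7, 68.1 and 75.8 in WT controls.

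**Figure D5:**
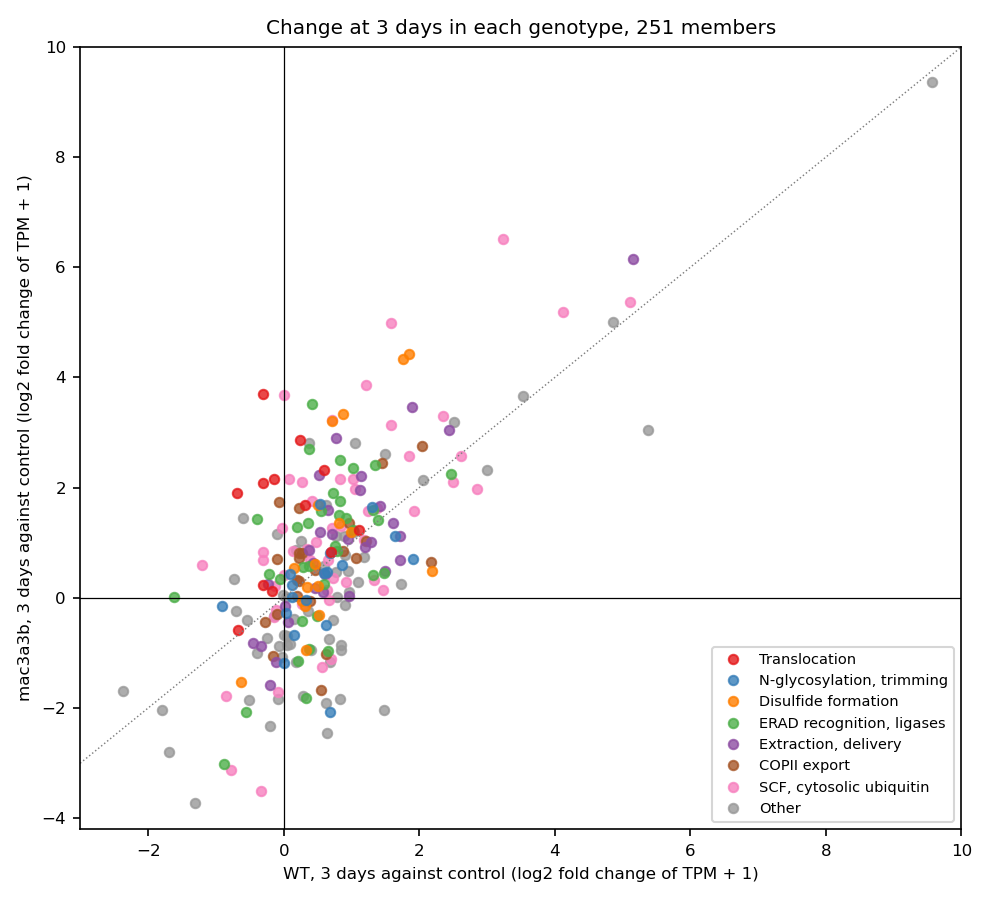
Log2 fold change of TPM + 1 at 3 days against control in mac3a3b (y axis) and in WT (x axis) for the 251 members tested, coloured by role; the dotted line marks equal change. Translocation genes (red) lie above the line, with mac3a3b changes up to 3.71 and WT changes from -0.69 to 1.11, while the noncoding RNA AT3G07365 lies at 9.36 in mac3a3b and 9.56 in WT.

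The difference of the responses, mac3a3b minus WT, was positive in 105 members and negative in 97, beside 20.6% and 56.3% of all genes, with medians of 0.05 and -0.55. Median-of-ratios scaling gave 155 and 53 (8258 and 8494 of all genes) and quantile normalization 134 and 63 (8319 and 7800 of all genes). This contrast uses the same libraries as the comparison at 3 days, so it is not separate evidence. Of the 12 translocation genes, 9 were positive and 0 negative, and of the 18 N-glycan genes 4 were positive and 9 negative (12 and 5 under median-of-ratios scaling). HRD1B had the largest positive difference among ERAD genes (3.11 ± 0.049, adjusted p = 1.81e-11), and HRD3B the most negative (-2.15 ± 0.17).

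Among controls, 79 members were higher in mac3a3b and 49 lower, beside 30.3% and 19.2% of all genes, which is close to the table as a whole. The medians were 0.04 over the members and 0.06 over all genes. With median-of-ratios scaling 58 were higher and 69 lower, and with quantile normalization 65 and 68 (5362 and 5380, and 5962 and 5057, of all genes); no called member changed sign. Of 12 translocation genes 0 were higher and 4 lower. Several ubiquitin genes differed. UBC8 had 201, 196 and 197 TPM in mac3a3b controls, against 398, 406 and 428 in WT controls (-1.05 ± 0.040) and kept this gap at 3 days, with 163, 174 and 169.5 TPM in mac3a3b at 3 days, against 381, 381 and 372 in WT at 3 days. RMA1 had 10.9, 14.1 and 13.7 TPM in mac3a3b controls, against 32.7, 33.5 and 36.7 in WT controls (-1.35 ± 0.11), but at 3 days the genotypes were close, with 15, 12.5 and 11.7 TPM in mac3a3b at 3 days, against 10.9, 9.34 and 11.2 in WT at 3 days. SK4 was higher in mac3a3b controls (0.97 ± 0.078) and CDC48D too (0.87 ± 0.095).

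Outside the ubiquitin genes, Fes1B had 7.96, 9.2 and 7.63 TPM in mac3a3b controls, against 46.4, 47.8 and 42.6 in WT controls (-2.33 ± 0.12). ACD32.1, a peroxisomal small heat shock protein, had 37.8, 35.3 and 39.3 TPM in mac3a3b controls, against 115, 107 and 112 in WT controls (-1.54 ± 0.086). The sulfate-reducing enzymes APR1 and APR2, placed here for their thioredoxin-like part, were higher in mac3a3b controls by 1.11 ± 0.053 and 1.04 ± 0.060. SARA1A, a SAR1 gene, had 4.94, 5.09 and 4.16 TPM in mac3a3b controls, against 0.56, 1.15 and 1.22 in WT controls (1.55 ± 0.17). APR2 overlaps a noncoding member, AT1G08477, whose difference was of like size (1.15 ± 0.071), and the 2 cannot be told apart.

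Beside the members, the chaperone and sensor rows of the pathway that the rule left out gave 44 higher and 31 lower of 88 tested at 3 days (median 0.15). Genes of the related KEGG lists that are no members gave 12 higher and 20 lower of 38 for N-glycan synthesis, 17 and 18 of 42 for protein export, 53 and 63 of 137 for ubiquitin-mediated proteolysis, and 19 and 11 of 41 for SNARE transport. Their medians were -0.33, -0.12, -0.10 and 0.15. Over all genes 24.1% were higher and 58.7% lower, with a median of -0.51.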

How the data were processed

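The values are TPM per gene and library, as deposited by the authors in 1 annotated table with gene lengths and pathway columns; RSEM and TAIR10 are named in the submitters' processing notes, while versions, the aligner and any use of strand were not found in the labels or the table. The authors' group means were not used. The libraries were made from poly(A)-selected RNA with a TruSeq kit, per the labels' protocols. Rows with at least 1 TPM in at least 3 of 12 libraries (22462 of 37825) were tested with limma 3.58.1 in R 4.3.3 on log2(TPM + 1), with 1 mean per group and an intensity trend; Benjamini-Hochberg adjustment ran over all rows tested, and 5 contrasts were taken. The code was tested on simulated data. Replicate libraries correlated at 0.9823 to 0.9894 and shared at most 1.7967% identical values, so none was merged. TPM keeps no depth, so no counting error can be given. Alternatives were another pseudocount, no filter, median-of-ratios scaling, quantile normalization, no trend, a replicate block and leaving out each library.

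Roles were set by hand from the annotation, and the members and lists were chosen with earlier results of these data known. Named genes were, per role and contrast, the called members with the largest changes that had a group mean of at least 5 TPM and no overlap between groups, and the most abundant member of each role. Other members named, mostly paralogs and partner subunits of these, were added after their values were seen. All 283 members matched the RefSeq table (TAIR10.1), which was used for names and for overlapping genes. By it, 92 members are overlapped by another gene and may share its reads. The text does not flag each of these: P58IPK, CUL2, SEC62, Fes1A, SK4, SK20, MNS1, CDC48C and GCN2 are among them. Sequences were not used here, and 1 member is counted but not reported by name.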

Additional observations from a re-analysis of the deposited data

Results flagged for a closer look

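The members listed here responded differently in mac3a3b and WT, by the test of the difference itself: the response of mac3a3b (3 days against control) minus that of WT, in log2(TPM + 1), each with a limma adjusted p under 0.05 over all genes. All of them also enter the comparisons above, with the same libraries. Each difference kept its sign under median-of-ratios scaling and quantile normalization.

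The response was higher in mac3a3b for the SEC61 genes AT3G60540 (4.01) and AT1G29310 (2.63), for the disulfide isomerases PDIL2-3 (2.59) and PDIL2-2 (2.58), and for the mannosidases MNS3 (1.16) and MNS2 (0.34). It was higher for the ERAD genes HRD1B (3.11) and DER2.1 (2.32) and for the extraction genes NPL4-1 (2.14) and CDC48A (1.70). Higher values were also seen for the coat genes SAR1B (1.80) and SEC13B (1.39), for the SKP1-like genes SK12 (3.27), SK9 (3.40) and SK7 (2.66), and for SIL1 (2.44) and ACD32.1 (2.06). SK7, SK9 and SK12 were at or near 0 in controls, so the size of their values depends on the pseudocount. SK8 is listed at 0 outside mac3a3b at 3 days, so its value of 3.68 depends on the pseudocount and is not a fold change. SK8 passed the filter through that group alone, and SK7 would not have passed it without that group. The calls of SK7 and SK8 therefore add no support for a difference.

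The response was lower in mac3a3b for the glucosidase genes GCS1 (-2.75) and PSL4 (-1.21), and for QSOX2 (-1.71) and PDIL1-5 (-1.27) of the disulfide genes. It was lower for the BAP31-like gene AT5G48660 (-2.14), whose TPM was very low in mac3a3b at 3 days, and for the RING ligase gene RMA2 (-1.63). Without the first mac3a3b library of 3 days the value of RMA2 was -2.01. Lower values were seen for OTU1 (-1.05), for the SEC12-type pair AT5G50650 (-2.24) and AT5G50550 (-1.64), and for the conjugating enzymes UBC17 (-3.17) and UBC5 (-2.35). The genes of other annotation STN8 (-3.51), AT5G11720 (-3.08), APR1 (-2.67) and XYL1 (-2.53) were lower as well. No group had enough libraries for a check of single outlying samples.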

How the results depend on the processing

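The 6 alternatives besides leaving out each of the 12 libraries were: a pseudocount of 0.1, no filter on low values, median-of-ratios scaling, quantile normalization, no intensity trend and a replicate block. Scaling mattered most. Under median-of-ratios scaling, members lower in mac3a3b than in WT at 3 days numbered 60 (97 on TPM), members higher in WT at 3 days than in WT controls 118 (178) and lower 85 (37), and members with a negative difference of responses 53 (97). Under quantile normalization, members lower in WT at 3 days than in WT controls numbered 81 and members with a negative difference of responses 63. All-gene counts moved by over 1.5 times under these scalings in 6 cases, among them genes higher in mac3a3b than in WT at 3 days, which were 8612 and 9050 (5403 on TPM). The other 174 recomputed counts of members stayed within 1.5 times. Of the fold changes of single genes chosen by the naming rule, 2923 recomputed values kept direction and call, 9 lost the call and 2 changed sign: AT5G60460, mac3a3b against WT at 3 days, was 0.13 under median-of-ratios scaling, and AT2G16595, mac3a3b at 3 days against its controls, was 0.045 under quantile normalization. The cause was not tested.

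Leaving out 1 library at a time gave 112 to 117 members higher and 93 to 98 lower for mac3a3b against WT at 3 days, 172 to 179 and 30 to 38 for WT at 3 days against control, 158 to 162 and 66 to 68 for mac3a3b at 3 days against control, 100 to 104 and 95 to 100 for the difference of responses, and 70 to 84 and 42 to 52 for mac3a3b controls against WT controls. Replicate numbers did not pair the libraries: over 18 pairs of same-numbered libraries the deviations correlated at -0.0961 to 0.0772, 0 of them over 0.1, and 0 libraries correlated best with their own number in every other group. With the replicate block the counts were 115 higher and 97 lower for mac3a3b against WT at 3 days, 177 and 37 for WT at 3 days against control, 160 and 67 for mac3a3b at 3 days against control, 103 and 98 for the difference of responses, and 76 and 47 for the controls; none of the 163 fold changes chosen by the naming rule changed its call. Depth is unknown from TPM, so the precision of low values, such as those of HRD3B and AT5G48660 in mac3a3b at 3 days, cannot be given.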
